A study of Mus musculus with 28 samples.

Results

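Plasmacytoid dendritic cells (pDC) from mouse spleen in which Irf8 had been deleted carried 384 transcripts at levels seen in none of the control dendritic cell libraries. A gene was counted when its level in each of the 4 pDC_TG libraries was above the highest, or below the lowest, of all 24 control libraries. Of 13159 genes tested, 261 were above the controls and 123 were below, which is 1.98% and 0.935% of the genes tested. The files list 24421 genes, and 1 further gene met the rule for being above but failed the filter on low counts.

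The series holds RNA-seq of 28 libraries of sorted spleen dendritic cells from untreated C57Bl/6 mice aged 6 to 12 weeks. The pDC_TG group (n = 4) was pDC of the genotype Irf8fl/fl Itgax-cre; there the Cre recombinase is under regulatory sequence of Itgax, the gene for the integrin CD11c. The controls were pDC (pDC_WT), CD24+ conventional dendritic cells (cDC1_WT) and CD172a+ conventional dendritic cells (cDC2_WT), 8 libraries each, from Irf8fl/fl mice with no Cre. All 4 groups therefore carry the loxP-flanked Irf8 allele, and no library of conventional dendritic cells with the deletion was analysed here. The labels do not say whether an animal gave more than 1 library, so p-values measure the spread between libraries.

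Plasmacytoid dendritic cells are specialised in the secretion of type I interferon after sensing of nucleic acids, while cDC1 present antigen to CD8 T cells and cDC2 to CD4 T cells. The interferon regulatory factor IRF8 is needed for the development of cDC1 and is highly expressed in pDC, whereas cDC2 depend more on IRF4. IRF8 binds DNA poorly alone and acts with partners at composite elements, among them the Ets-IRF element and the interferon-stimulated response element (ISRE).

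Total gene counts were 22805201 to 28725550 in pDC_TG and 17299285 to 30787679 in pDC_WT libraries, and both cDC groups lay within the pDC_WT span. Levels are CPM (a gene's counts per 1000000 gene counts of its library) after TMM scaling, which corrects for differences in library composition. Irf8 itself, at chr8:120736358-120756694 (GRCm38), had 1490, 1402, 1166 and 1787 CPM in pDC_TG libraries, against 5378 to 6536 CPM in pDC_WT, 3702 to 4249 CPM in cDC1_WT and 49.2 to 87.1 CPM in cDC2_WT. The pDC_TG mean was 23.8% of the pDC_WT mean (log2 fold change -2.07, edgeR quasi-likelihood adjusted p = 4.43e-13; exact two-sided permutation p = 0.00202 over 495 splits). Its level thus sat between the control groups, so Irf8 is not among the 384 genes. The counts do not tell deleted from undeleted transcript, or fewer cells with Irf8 from less Irf8 per cell; the same holds for every gene below.

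The cells carried the pDC markers that were examined, although Bst2 was lower than in pDC_WT. Siglech averaged 1454 CPM in pDC_TG and 2298 CPM in pDC_WT, Tcf4 731 and 718 CPM, and Spib 1244 and 1189 CPM. The median of Spib was 144 CPM in cDC2_WT and 4.80 CPM in cDC1_WT. Bst2 averaged 743 CPM in pDC_TG and 1156 CPM in pDC_WT (edgeR adjusted p = 0.000379). Ccr9 averaged 942 and 1449 CPM and Ly6d 4256 and 2904 CPM, neither called against pDC_WT. The pDC identity list summed to 17266 to 21408 CPM in pDC_TG and 18434 to 22676 CPM in pDC_WT. Of its 30 genes, 12 were called lower than pDC_WT, against 7.04% of all genes tested, and 2 higher, against 7.72%. The median log2 fold change of the list against pDC_WT was -0.63. The cDC1 receptor Xcr1 reached 1.98 CPM in pDC_TG at most, against 977 to 1381 CPM in cDC1_WT. Clec9a, another cDC1 marker, averaged 6.59 CPM in pDC_TG, 91.6 CPM in pDC_WT and 250 CPM in cDC1_WT. The cDC1 identity list summed to 944 to 1284 CPM in pDC_TG, above the 753 to 882 CPM of pDC_WT. In cDC1_WT that sum was 15420 to 18260 CPM. The cDC2 identity list summed to 2699 to 3042 CPM in pDC_TG and 2585 to 3433 CPM in pDC_WT. Of its 20 genes, 7 were called higher than pDC_WT and 5 lower, against 7.72% and 7.04% of all genes tested. The cDC2 marker Itgam averaged 31.9 CPM in pDC_TG and 0.401 CPM in pDC_WT, and Irf4 434 and 146 CPM, both called higher. Sirpa averaged 300 and 425 CPM, Esam 3.41 and 5.73 CPM and Clec4a4 0.0269 and 0.0836 CPM, none called against pDC_WT. Summed over the neutrophil marker list, pDC_TG replicate 4 reached 209.7 CPM. Replicates 1 to 3 held 8.66 to 11.3 CPM, pDC_WT libraries 3.87 to 9.80 CPM and cDC2_WT libraries 72.7 to 185 CPM. None of the 9 tested neutrophil markers met the range rule; S100a8 and S100a9 were called higher in all 3 comparisons with replicate 4, and no marker of the list was without it. Without replicate 4, 322 genes were above and 165 below, and they included 260 of the 261 and 120 of the 123 genes.

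The genes were compared with each control group in a single edgeR fit of all 28 libraries, and a gene is said here to have risen or fallen when it was called in all 3 comparisons. That took a Benjamini-Hochberg adjusted p below 0.05 in the same direction against pDC_WT, cDC1_WT and cDC2_WT. Over all genes tested, 288 (2.19%) were higher in all 3 and 316 (2.4%) lower in all 3. These shares, and the 1.98% above and 0.935% below all controls, are the ones to set beside each count of list members. Of the 261 genes above the controls 194 had risen, and of the 123 below them 119 had fallen; range rule and fit use the same counts, so these shares are a description. The adjusted p given with a gene is the largest of its 3, and the fold change is the one against the nearest control group.

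A minority of the changes relative to pDC_WT went beyond the control range. Of 1016 genes called higher in pDC_TG than in pDC_WT (7.72% of genes tested), 199 (19.6%) were above all 24 controls, while for 571 (56.2%) the pDC_TG mean lay among the means of the 3 control groups. Of 927 genes called lower (7.04%), 121 (13.1%) were below all controls and 484 (52.2%) lay among the control means. The control library next to pDC_TG was a pDC_WT library for 201 of the genes above (77.0%), a cDC2_WT library for 46 and a cDC1_WT library for 14. For the genes below it was a pDC_WT library in 88 cases (71.5%), a cDC2_WT library in 22 and a cDC1_WT library in 13.

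**Figure D1:**
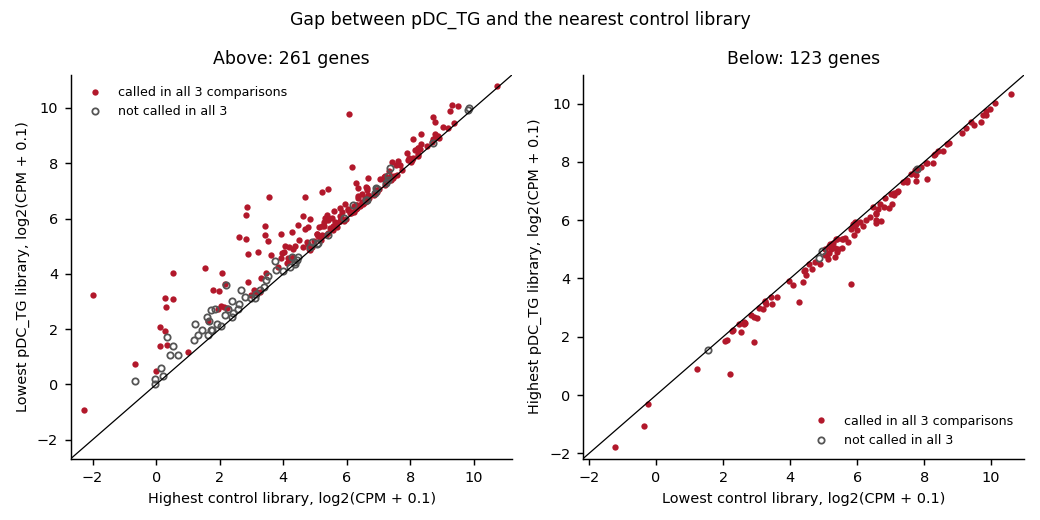
Each point is a gene, with the lowest pDC_TG library against the highest control library (left, 261 genes above) or the highest pDC_TG library against the lowest control library (right, 123 genes below), both axes log2(CPM + 0.1). Points farther from the diagonal have a wider gap; 80 genes above and 10 below were at least 1.5-fold from the next control library.

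Most gaps were narrow. The median gap to the next control library was 1.25-fold for the genes above and 1.13-fold for those below, and 39 genes above and 4 below had a gap of at least 2-fold. Just inside the rule, Hp1bp3 had 168.3 CPM in its lowest pDC_TG library and 168.2 CPM in the highest control library, and just outside it Prkar1a had 599.4 and 600.1 CPM. On the lower side, Rfc3 lay just inside with 9.32 CPM in its highest pDC_TG library and 9.34 CPM in the lowest control, and Creg1 just outside with 116.7 and 116.1 CPM. The genes above were mostly genes that control cells also transcribed: the highest control library was under 1 CPM for 9 genes and at 100 CPM or more for 70. The split between genes above and below depended on scaling. TMM gave 68.0% above, and scaling by total counts alone gave 80.2% (336 above, 83 below), since it raised the log2 difference by 0.05 against pDC_WT, 0.29 against cDC1_WT and 0.20 against cDC2_WT.

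The widest gap belonged to Plcb1, a phospholipase C that turns G protein signals into calcium release, at chr2:134786164-135475258. It had 9.32, 14.4, 21.4 and 17.5 CPM in pDC_TG libraries, against at most 0.154 CPM in pDC_WT, 0.0431 CPM in cDC1_WT and 0.0465 CPM in cDC2_WT. The control libraries of all 3 kinds thus held almost no Plcb1 read, and its log2 fold change against pDC_WT was 8.40 ± 0.84 (SE; adjusted p = 1.04e-08). That fitted fold rests on 9 reads in all pDC_WT libraries together. The related Plcb4, chosen after its values were seen, also rose, with 27.2 to 39.1 CPM in pDC_TG against 9.18 to 15.5 CPM in cDC1_WT, the nearest group. Their relative Plcb2 fell, with 36.1 to 53.3 CPM in pDC_TG against 47.4 to 76.9 CPM in cDC2_WT, the nearest group (log2 fold change -0.44 ± 0.15, adjusted p = 0.0202).

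Of the genes above the controls, 10 are named here by a rule: those with the largest log2 fold change among genes called in all 3 and at 5 CPM or more in pDC_TG, leaving out predicted genes and markers of other cell types such as Sdc1. Smoc1, Il34 and Xcl1 among them encode secreted proteins. Of the exonic bases of Xcl1, 18.7% are shared with another gene. Smoc1, a secreted matrix-binding protein, had 16.3, 37.7, 22.8 and 20.7 CPM in pDC_TG, against at most 0.899 CPM in pDC_WT and 1.35 CPM in cDC2_WT, and no read in cDC1_WT. Il34, a ligand of the CSF1 receptor, had 8.90, 9.49, 12.6 and 6.92 CPM in pDC_TG and at most 1.13 CPM in any control. Xcl1, the chemokine ligand of the cDC1 receptor XCR1, had 39.9, 50.7, 63.3 and 71.6 CPM in pDC_TG, against 0.550 to 6.02 CPM in pDC_WT, at most 0.453 CPM in cDC2_WT and none in cDC1_WT. Their log2 fold changes against the nearest group were 6.84 ± 1.26 for Smoc1, 5.14 ± 1.27 for Il34 and 4.59 ± 0.64 for Xcl1 (SE; adjusted p = 0.00039, 0.00674 and 1.66e-05). Il34 was not called in all 3 by DESeq2 (adjusted p = 0.115), nor was the membrane protein gene Tmem121 (0.105), which had 8.71 to 14.6 CPM in pDC_TG and at most 1.12 CPM in a control.

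Lrrc15, a leucine-rich repeat membrane protein, had 146, 157, 120 and 111 CPM in pDC_TG, against 2.37 to 11.6 CPM in pDC_WT and at most 0.0465 CPM in the cDC groups (log2 fold change 4.71 ± 0.31, adjusted p = 9.88e-11). Cd2, an adhesion molecule of lymphocytes and some pDC, had 15.7, 8.47, 10.8 and 8.68 CPM in pDC_TG and at most 1.36 CPM in a control. Il2ra, the alpha chain of the interleukin-2 receptor, had 73.4, 78.6, 92.4 and 70.6 CPM in pDC_TG, against 0.462 to 6.97 CPM in pDC_WT and at most 6.32 CPM in cDC2_WT. Its log2 fold change was 4.16 ± 0.67 (adjusted p = 3.72e-05). Sdc1, the proteoglycan CD138 known from plasma cells and outside those 10 genes, had 873 to 1221 CPM in pDC_TG and 36.8 to 66.5 CPM in pDC_WT. The G protein-coupled receptor gene Gpr25 had 86.0 to 110 CPM in pDC_TG and at most 7.10 CPM in a control, but 41.6% of its exonic bases overlap another gene and the libraries carry no strand, so its reads are uncertain. Klhl30, a kelch-repeat gene, had 18.4 to 27.7 CPM in pDC_TG, at most 2.79 CPM in pDC_WT and no read in cDC libraries.

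**Figure D2:**
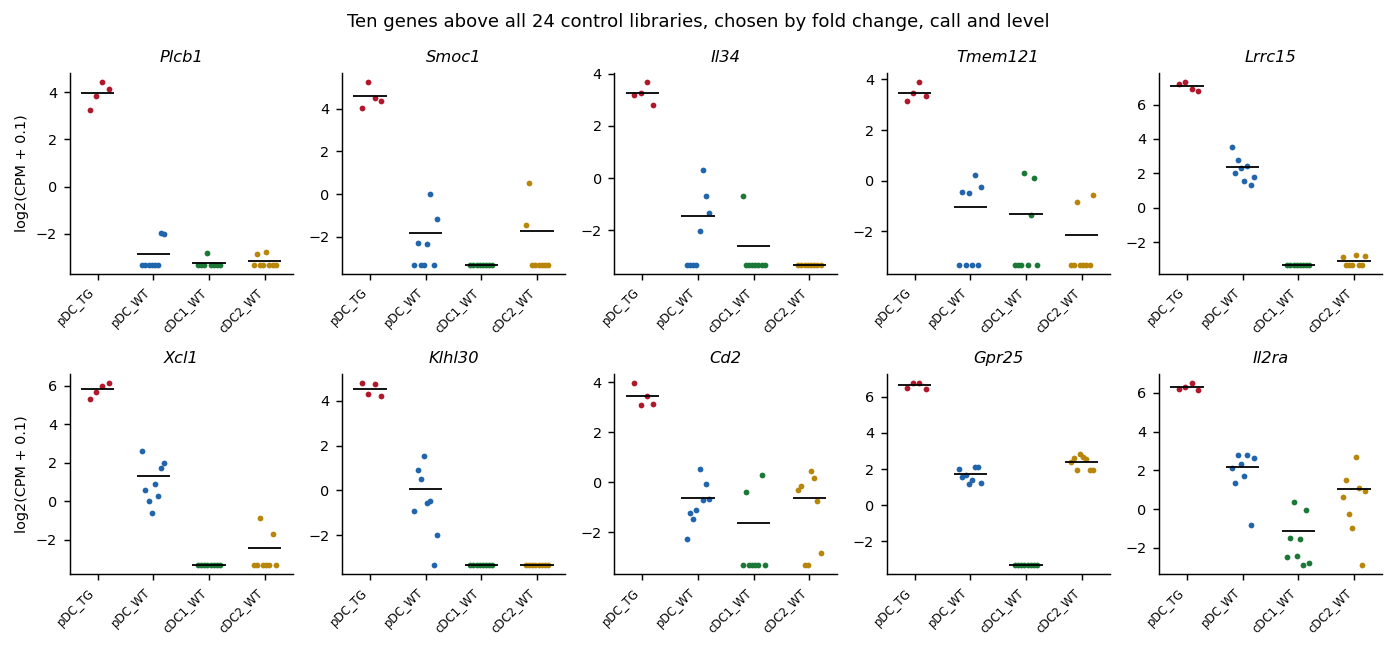
Level of 10 genes above all controls, as log2(CPM + 0.1), in pDC_TG (red), pDC_WT (blue), cDC1_WT (green) and cDC2_WT (gold). Each point is a library and each black line a group mean; the 4 pDC_TG points lie above all 24 control points, as the rule requires. The genes have the largest log2 fold changes among those called in all 3 comparisons and at 5 CPM or more in pDC_TG; markers of other cell types such as Sdc1 and predicted genes are left out.

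Among chemokine and migration receptors 2 of 21 tested genes were above the controls, against 1.98% of all genes tested. These were Gpr25 and Ccr1, both of which had risen. None was below, against 0.935% of all genes tested. Ccr1, a receptor for inflammatory CC chemokines, had 155, 252, 135 and 150 CPM in pDC_TG, against 2.69 to 42.4 CPM in pDC_WT and at most 12.9 CPM in cDC2_WT (log2 fold change 3.03 ± 0.50, adjusted p = 6.20e-05). In the list of 30 genes of phospholipase, G protein-coupled receptor and calcium signalling, Plcb1 and Hrh1 were above and P2ry6 below; 3 had risen (with Adora2a) and 2 had fallen (with Plcb2). Hrh1, the histamine H1 receptor, had 104, 102, 68.3 and 72.9 CPM in pDC_TG, against 2.58 to 24.3 CPM in pDC_WT and 13.2 to 23.02 CPM in cDC2_WT (log2 fold change 2.11 ± 0.43, adjusted p = 0.000165). P2ry6, a receptor for uridine diphosphate, had 7.94, 4.73, 5.66 and 14.1 CPM in pDC_TG, against 56.1 to 88.5 CPM in pDC_WT, 145 to 188 CPM in cDC1_WT and 57.4 to 112 CPM in cDC2_WT. It fell by 3.13 ± 0.23 on the log2 scale (adjusted p = 1.38e-11).

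In the list of lymphoid progenitor and B lineage genes 3 of 18 were above, Dntt, Blk and Cd2, all 3 had risen, and none was below. Dntt, the terminal transferase of antigen receptor assembly, had 494, 510, 508 and 471 CPM in pDC_TG, against 157 to 273 CPM in pDC_WT and at most 0.0409 CPM in the cDC groups (log2 fold change 1.25 ± 0.12, adjusted p = 4.31e-08). Blk, a Src family kinase of B cells, had 120, 115, 132 and 111 CPM in pDC_TG, against 4.84 to 9.41 CPM in pDC_WT and 8.56 to 25.8 CPM in cDC2_WT (log2 fold change 2.79 ± 0.25, adjusted p = 6.05e-11). Lck, the Src family kinase of T cells, was the 1 of 7 tested T cell markers above the controls. It had 38.3, 51.6, 92.7 and 83.0 CPM in pDC_TG, against 2.81 to 7.05 CPM in pDC_WT and at most 2.41 CPM in the cDC groups. The genes in the next paragraph were chosen after their values were seen.

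Zap70, the kinase that Lck activates in T cells, had 1.38, 0.832, 0.433 and 0.830 CPM in pDC_TG and at most 0.106 CPM in a control, so it was detected at a low level (adjusted p = 0.000727; not called by DESeq2). Ifng, the gene of interferon gamma, had 2.57, 4.58, 6.29 and 3.64 CPM in pDC_TG and at most 1.17 CPM in pDC_WT, with no read in cDC libraries (adjusted p = 0.0463; not called by DESeq2). Stat4, which carries signals of interleukin-12 and type I interferon, had 76.6 to 106 CPM in pDC_TG, against 3.45 to 11.3 CPM in pDC_WT and 28.2 to 48.3 CPM in cDC2_WT (log2 fold change 1.18 ± 0.32, adjusted p = 0.00333). Klrd1, the CD94 subunit of natural killer receptors, had 532 to 767 CPM in pDC_TG, 132 to 322 CPM in pDC_WT and 157 to 270 CPM in cDC2_WT. Cd72, Cd37, Sit1 and the lysophosphatidylserine receptor Gpr174 rose by 1.00, 0.57, 1.10 and 0.86 on the log2 scale against pDC_WT. Cd8b1, with 984 to 1338 CPM in pDC_TG and 640 to 908 CPM in pDC_WT, and Cd96, with 21.9 to 29.2 and 5.09 to 13.2 CPM, were above the range without being called (adjusted p = 0.153 and 0.144).

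Defining transcripts of T, NK and B cells were at or near 0 in the same libraries. Cd3e had at most 1.08 CPM in pDC_TG and 1.32 CPM in pDC_WT, Cd3d at most 0.319 and 0.300 CPM, Ncr1 at most 0.599 CPM and none, and Pax5 at most 0.266 and 0.0616 CPM. The summed T cell list was 118 to 187 CPM in pDC_TG and 62.9 to 120 CPM in pDC_WT, a sum that contains Lck. The NK and innate lymphoid list summed to 3.99 to 8.36 CPM in pDC_TG and 0.862 to 6.46 CPM in pDC_WT, with Klra8, Klra4 and Tbx21 at 0 in pDC_TG. The B cell list, which contains Blk, summed to 397 to 470 CPM in pDC_TG and 324 to 422 CPM in pDC_WT. None of the tested markers of monocytes and macrophages (16), NK cells (7), erythroid cells and platelets (6) or basophils (1) was beyond the controls.

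Transcription factors included genes on both sides. Of 33 factors with roles in dendritic cells, Prdm1 and Id3 were above the controls and Klf2 below; with Irf4 and Batf3, which stayed within the range, 3 had risen and 2 had fallen. Batf3 had no read in pDC_TG and at most 0.263 CPM in pDC_WT, where 5 of 8 libraries were also at 0, so its call rests on 16 pDC_WT reads. Without pDC_TG replicate 2, 3 or 4 the list had 1 factor that fell, Klf2, in place of 2, so Batf3 was not called there. Prdm1, the repressor BLIMP-1 of plasma cell differentiation, had 56.6, 51.4, 71.0 and 76.5 CPM in pDC_TG, against 3.22 to 9.69 CPM in pDC_WT and 16.1 to 34.4 CPM in cDC2_WT (log2 fold change 1.20 ± 0.41, adjusted p = 0.0167; 0.0540 without pDC_TG replicate 4). Irf4, the factor closest to Irf8 in sequence, had 329 to 520 CPM in pDC_TG, against 95.9 to 253 CPM in pDC_WT and 147 to 385 CPM in cDC2_WT, which left its lowest pDC_TG library under 1 control maximum (log2 fold change 0.98, adjusted p = 0.0140). Id3, an inhibitor of E proteins such as TCF4, had 70.6, 32.5, 34.0 and 30.9 CPM in pDC_TG and 7.01 to 24.8 CPM in pDC_WT, and replicate 1 stood apart (adjusted p = 0.0298; 0.184 without it). Klf2, a factor of lymphocyte quiescence and migration, had 785, 618, 529 and 501 CPM in pDC_TG, against 1260 to 2300 CPM in pDC_WT, 913 to 1688 CPM in cDC1_WT and 1125 to 1996 CPM in cDC2_WT. It fell by 1.09 ± 0.19 against cDC1_WT (adjusted p = 1.73e-05), and under total-count scaling the fall was called but the ranges overlapped.

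Further factors outside that list were chosen after their values were seen. Sox4, a factor of progenitor cells, had 261, 272, 234 and 245 CPM in pDC_TG, against 27.9 to 71.5 CPM in pDC_WT and 18.3 to 39.0 CPM in cDC2_WT (log2 fold change 2.51 ± 0.37, adjusted p = 1.10e-05), with 54.6% of its exonic bases shared with another annotated gene. Scml4, a Polycomb-group protein, had 25.7 to 31.6 CPM in pDC_TG and at most 12.2 CPM in a control. Klf13, Elf1, Fli1 and the Groucho corepressors Tle1 and Tle4 rose by 0.94, 0.56, 0.34, 1.10 and 0.36 on the log2 scale. Below the controls, E2f1, an activator of the G1 to S transition, had 15.9 to 22.7 CPM in pDC_TG, against 31.2 to 46.0 CPM in pDC_WT, 29.7 to 47.1 CPM in cDC1_WT and 36.9 to 53.4 CPM in cDC2_WT (log2 fold change -0.96 ± 0.14, adjusted p = 1.09e-05). None of 25 cell cycle genes was beyond the controls or called in all 3. Of them, 16 were higher in pDC_TG than in pDC_WT, against 7.72% of all genes tested. All 25 were lower than in cDC1_WT and in cDC2_WT, against 26.6% and 23.9% of all genes tested.

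Interferon-related genes were above the control range in 5 of 42 cases, against 1.98% of all genes tested, and below it in none, against 0.935%. Of the 42, 3 had risen, against 2.19% of all genes tested. Oasl2, a member of the oligoadenylate synthetase family, had 224, 157, 209 and 172 CPM in pDC_TG, against 27.7 to 67.7 CPM in pDC_WT and 39.2 to 78.6 CPM in cDC2_WT (log2 fold change 1.52 ± 0.27, adjusted p = 3.29e-05). Cmpk2, a mitochondrial nucleotide kinase induced by interferon, had 80.4, 70.4, 101 and 98.0 CPM in pDC_TG, 21.4 to 40.4 CPM in pDC_WT and 17.5 to 41.6 CPM in cDC2_WT (log2 fold change 1.49 ± 0.23). Xaf1, a proapoptotic interferon target, had 43.2 to 60.3 CPM in pDC_TG and 23.4 to 33.6 CPM in cDC2_WT, its nearest group (log2 fold change 0.87 ± 0.21, adjusted p = 0.000789). Rtp4, with 121 to 182 CPM in pDC_TG and 76.3 to 118 CPM in cDC2_WT, and Oas1b, with 2.94 to 5.03 CPM in pDC_TG and at most 2.16 CPM in a control, were above the range without being called (adjusted p = 0.247 and 0.106). Of the list, 21 were called higher than pDC_WT, against 7.72% of all genes tested, and 3 lower, against 7.04%. The list's median log2 difference to the nearest control group was 0.04, against 0 over all genes tested. Samd9l had fallen, with 27.5 to 50.3 CPM in pDC_TG and 37.6 to 101 CPM in pDC_WT. None of the 16 cytosolic sensing genes was beyond the controls or called in all 3.

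Of 19 genes of Toll-like receptor signalling and interferon induction, 1 was below the controls, Irf5, and none was above. Over all genes tested 0.935% were below and 1.98% above, and 1 gene does not describe the list. Irf5 had 170, 122, 112 and 167 CPM in pDC_TG, against 274 to 393 CPM in pDC_WT, 706 to 766 CPM in cDC1_WT and 367 to 481 CPM in cDC2_WT. It fell by 1.15 ± 0.11 on the log2 scale (adjusted p = 1.72e-09). Of the exonic bases of Irf5, 14.1% are shared with another gene. Tyk2, the kinase of the type I interferon and interleukin-12 receptors, chosen after its values were seen, had 61.3 to 87.8 CPM in pDC_TG and at least 88.0 CPM in the controls, just inside the rule.

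Promoters were searched for the letters of IRF elements because Irf8 is the deleted factor. Promoter windows of 300 bases, 250 before to 50 after the start, were taken from RefSeq (GRCm38.p6) and read on both strands. The pair GAAA, any 2 bases, GAAA, the core of an ISRE, was found for 10 of 203 genes above (4.93%), 3 of 100 genes below (3.00%) and 419 of 10516 genes tested (3.98%). In the interferon-stimulated list it was found for 20 of 33 promoters (60.6%). The letters GGAA, any 2 bases, GAAA, an Ets-IRF composite element, were found for 2.96% of genes above, 4.00% below and 3.01% of genes tested. Matches of the 2 patterns may overlap each other in a promoter. The share among genes beyond the controls was thus close to that of all genes. Examples are printed with each match in capitals (TTTC, any 2 bases, TTTC where it lies on the other strand), for 2 genes that rose and 2 that fell: Hrh1 (chr6:114403416-114403715, plus strand), Stat4 (chr1:52007990-52008289, plus strand), Ifi205 (chr1:174031706-174032005, minus strand) and Dpp4 (chr2:62412182-62412481, minus strand).
Hrh1: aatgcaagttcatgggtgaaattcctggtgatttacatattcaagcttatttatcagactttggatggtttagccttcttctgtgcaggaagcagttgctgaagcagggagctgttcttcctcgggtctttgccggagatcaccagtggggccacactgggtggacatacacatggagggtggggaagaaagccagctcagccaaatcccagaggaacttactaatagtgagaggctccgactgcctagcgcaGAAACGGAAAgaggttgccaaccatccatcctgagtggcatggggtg
Stat4: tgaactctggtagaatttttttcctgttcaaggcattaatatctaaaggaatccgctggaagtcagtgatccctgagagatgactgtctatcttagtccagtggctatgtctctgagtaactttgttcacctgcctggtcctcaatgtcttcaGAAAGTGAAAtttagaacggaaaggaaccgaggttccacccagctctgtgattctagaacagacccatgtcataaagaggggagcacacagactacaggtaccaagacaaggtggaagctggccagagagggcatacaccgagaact
Ifi205: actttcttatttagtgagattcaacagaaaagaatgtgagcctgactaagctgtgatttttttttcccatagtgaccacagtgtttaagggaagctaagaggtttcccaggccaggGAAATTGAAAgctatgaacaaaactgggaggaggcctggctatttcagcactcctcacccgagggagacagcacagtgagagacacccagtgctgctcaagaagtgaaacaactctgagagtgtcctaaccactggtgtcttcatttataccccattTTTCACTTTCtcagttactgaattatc
Dpp4: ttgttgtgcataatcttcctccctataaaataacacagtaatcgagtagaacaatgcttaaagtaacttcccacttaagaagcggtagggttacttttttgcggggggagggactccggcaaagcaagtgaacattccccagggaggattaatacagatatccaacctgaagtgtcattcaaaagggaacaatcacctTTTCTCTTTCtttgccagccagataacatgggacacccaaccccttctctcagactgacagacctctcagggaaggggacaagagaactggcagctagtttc

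Ifi205, of the interferon-inducible PYHIN family and a marker of cDC1, had 0.0384, 0, 0.333 and 0.702 CPM in pDC_TG, against 0.743 to 3.52 CPM in pDC_WT, 379 to 469 CPM in cDC1_WT and 0.855 to 5.40 CPM in cDC2_WT. It fell by 2.85 ± 0.52 from an already low level (adjusted p = 0.000189). It was the only cDC1 identity gene below the range among 19. Of 14 genes shared by conventional dendritic cells Csf2ra and Dpp4 were below, and of 20 cDC2 identity genes none was beyond the controls. Csf2ra, the alpha chain of the GM-CSF receptor, had 13.8, 19.3, 11.2 and 17.8 CPM in pDC_TG, against 21.4 to 33.5 CPM in pDC_WT and at least 135 CPM in the cDC groups (log2 fold change -0.74 ± 0.13, adjusted p = 0.000163). Dpp4, the peptidase CD26, had 121 to 161 CPM in pDC_TG and 164 to 215 CPM in pDC_WT; it fell by 0.37 ± 0.09, and under total-count scaling the ranges overlapped.

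Among 30 pDC identity genes Dntt, Cox6a2 and Atp1b1 were above the controls, of which the first 2 had risen, and none was below. Of the 30, 12 were called lower than pDC_WT, against 7.04% of all genes tested. Atp1b1, a sodium pump subunit, had 1031 to 1346 CPM in pDC_TG and 671 to 923 CPM in pDC_WT (adjusted p = 0.161). Of 28 listed lectins and phagocytic receptors Cd209c and Clec12a were above the controls and had risen, and Clec4a2 and Axl had fallen within the range. Cd209c, of the DC-SIGN family, had 53.7, 72.2, 84.4 and 57.7 CPM in pDC_TG and 9.94 to 21.8 CPM in pDC_WT (log2 fold change 2.22 ± 0.22, adjusted p = 1.04e-08). Clec12a, an inhibitory receptor for uric acid crystals, had 1109, 1282, 1310 and 1152 CPM in pDC_TG and 417 to 637 CPM in pDC_WT (log2 fold change 1.18 ± 0.19). The fixed lists of antigen presentation (15 of class II, 18 of class I), costimulation (21) and integrins and adhesion (24) held no gene beyond the controls. Over all genes tested 1.98% were above and 0.935% below, so a list of this size with none is close to that share. March1, Psme2, Rab43, Cd40, Havcr2, Itgb2 and Icam1 of these lists had fallen and none had risen. The integrin gene Itgad, described with its neighbours, is not in the list.

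**Figure D3:**
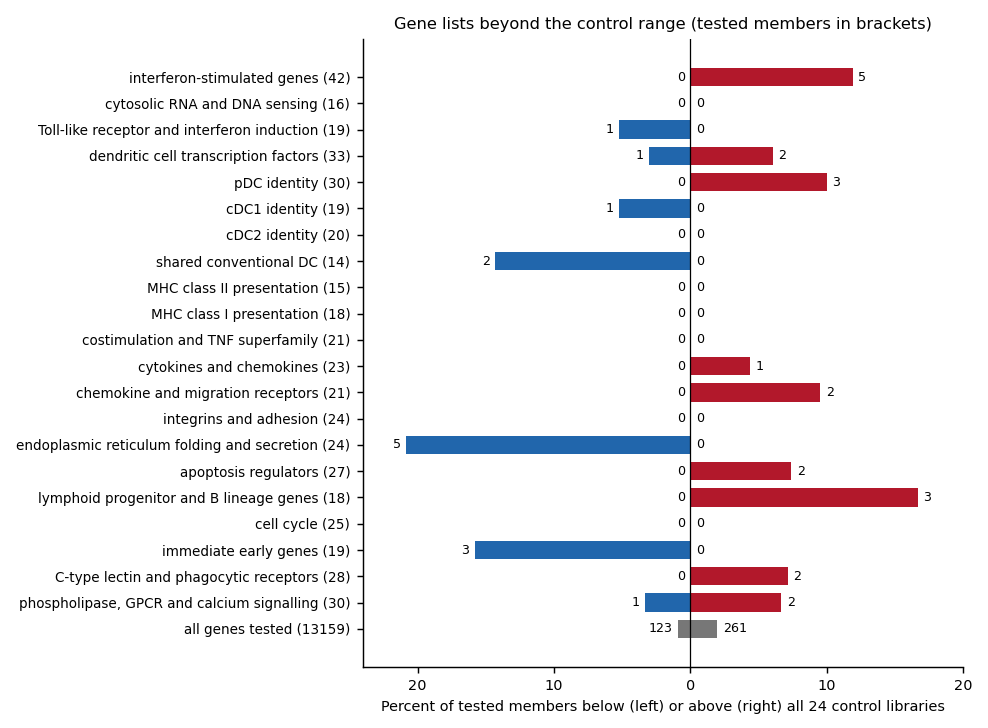
Percent of the tested members of each gene list that were below (blue, left) or above (red, right) all 24 control libraries, with their number at the end of each bar and the number tested in brackets. The grey bars give all 13159 genes tested, 0.935% below and 1.98% above; folding and secretion genes had 5 of 24 below and interferon-stimulated genes 5 of 42 above.

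Genes around Itgax were examined as a set because its regulatory sequence drives the Cre. Of 25 annotated genes within 200 kb of Itgax on chromosome 7, 10 were tested and 4 were higher in pDC_TG than in pDC_WT. Of these, 2, Itgad and Cox6a2, were above all controls and had risen. Over all genes tested, 7.72% were higher than in pDC_WT and 1.98% were above all controls. Itgad, the integrin CD11d, starts 23.3 kb from Itgax and had 32.0, 50.8, 62.9 and 56.2 CPM in pDC_TG, against 8.17 to 16.5 CPM in pDC_WT and at most 4.28 CPM in the cDC groups (log2 fold change 2.01 ± 0.43, adjusted p = 0.00112). Cox6a2, a cytochrome c oxidase subunit of muscle and pDC, starts 54.8 kb away and had 634, 690, 1330 and 1359 CPM in pDC_TG, against 271 to 517 CPM in pDC_WT and at most 0.419 CPM in the cDC groups (log2 fold change 1.42 ± 0.25, adjusted p = 0.000113). The pDC_TG libraries formed a low and a high pair for Cox6a2. Annotated positions of Itgad and Cox6a2 overlap at their ends, and 10.3% of the exonic bases of Cox6a2 are shared with another gene. With no strand given, how reads of that overlap were assigned is uncertain. Itgax had 371 to 446 CPM in pDC_TG, 107 to 232 CPM in pDC_WT and 672 to 1045 CPM in cDC2_WT. Itgam had 19.1 to 36.5 CPM in pDC_TG, at most 1.75 CPM in pDC_WT and 119 to 194 CPM in cDC2_WT. The 6 other tested genes, from Prss36 to Tgfb1i1, were not called against pDC_WT. How much genomic sequence the Cre transgene carries is not given in the labels, and its part in these levels was not tested.

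**Figure D4:**
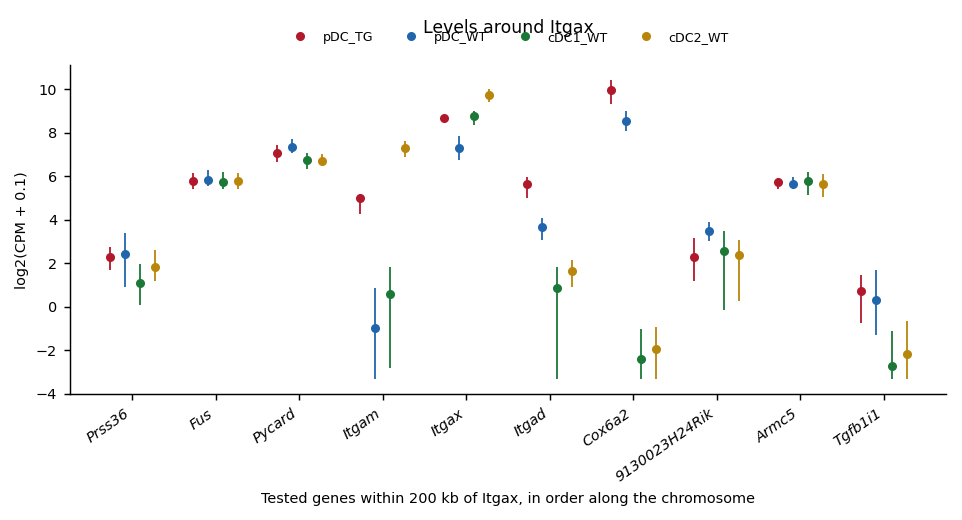
Group mean (point) and the span from the lowest to the highest library (line) of the 10 tested genes within 200 kb of Itgax, as log2(CPM + 0.1), in chromosome order. In pDC_TG, Itgad (mean 50.5 CPM) and Cox6a2 (mean 1003 CPM) lie above every control library, while Itgam and Itgax lie between pDC_WT and cDC2_WT.

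The following enzymes and growth factor genes above the controls were chosen after their values were seen. Faah, which degrades endocannabinoids, had 99.8, 93.2, 70.2 and 52.7 CPM in pDC_TG and at most 10.6 CPM in a control (log2 fold change 3.76 ± 0.61, adjusted p = 4.80e-05). Hpse, the heparan sulfate cleaving heparanase, had 843, 1022, 922 and 721 CPM in pDC_TG and 394 to 435 CPM in pDC_WT. St6gal1, which adds sialic acid to glycoproteins, had 245 to 353 CPM in pDC_TG and 133 to 188 CPM in cDC2_WT, with its lowest levels in pDC_WT (68.3 to 96.2 CPM). Fgfr1, a fibroblast growth factor receptor, and Vegfc, a lymphatic growth factor, rose by 1.33 ± 0.30 and 1.24 ± 0.36 against pDC_WT (adjusted p = 0.00235 and 0.0198). Ulk1, Gabarapl1, Gabarapl2 and Uvrag, which act in autophagosome formation and were also chosen after their values were seen, rose by 0.78, 0.73, 0.68 and 0.29 on the log2 scale, and Uvrag was no longer beyond the range with DESeq2 size factors; no list of such genes was counted. Of 27 apoptosis regulators Bad and Bcl2 were above, against 1.98% of all genes tested, and none was below, against 0.935%. Bad had risen and Bcl2l1 had fallen, against 2.19% and 2.4% of all genes tested. The antiapoptotic Bcl2 had 22.3, 23, 22.3 and 22.7 CPM in pDC_TG, 3.60 to 9.45 CPM in pDC_WT and at most 21.5 CPM in cDC2_WT (adjusted p = 0.0769). The proapoptotic Bad had 37.4 to 40.6 CPM in pDC_TG and at most 35.2 CPM in a control (adjusted p = 0.0184; 0.0554 without pDC_TG replicate 3).

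The genes below the controls had smaller distances than those above. Cacna1s, the pore subunit of a voltage-gated calcium channel, had 0, 0.416, 0 and 1.53 CPM in pDC_TG, against 4.48 to 10.5 CPM in pDC_WT, 42.0 to 65.6 CPM in cDC1_WT and 10.7 to 22.6 CPM in cDC2_WT (log2 fold change -3.74 ± 0.53, adjusted p = 6.17e-06). Of the exonic bases of Cacna1s, 20.0% are shared with another gene. Tns3, a focal adhesion adaptor, had 3.72, 9.12, 0.666 and 4.02 CPM in pDC_TG and 19.2 to 38.8 CPM in pDC_WT, and Actn1, an actin crosslinker, 3.45, 1.74, 1.40 and 1.60 CPM and 7.54 to 14.1 CPM. The pDC_TG libraries spread widely for Tns3. Anxa2, a calcium-dependent membrane-binding protein, had 22.8, 30.1, 22.0 and 63.5 CPM in pDC_TG, highest in replicate 4, against 76.5 to 175 CPM in pDC_WT (log2 fold change -1.82 ± 0.24, adjusted p = 1.89e-06). S100a10, whose protein binds that of Anxa2 and which was chosen after its values were seen, was above the controls, with 116 to 185 CPM in pDC_TG and 57.4 to 102 CPM in pDC_WT.

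For most of these genes pDC_WT already had the lowest control level. Mreg, a gene of melanosome and lysosome transport, had 1.65 to 5.33 CPM in pDC_TG, against 6.00 to 17.0 CPM in pDC_WT and 370 to 464 CPM in cDC2_WT. Cdk14, a cyclin-dependent kinase of Wnt signalling, had 1.60 to 5.53 CPM in pDC_TG, 6.12 to 16.1 CPM in pDC_WT and at least 100 CPM in the cDC groups. The small GTPase Rab39 and the adhesion receptor Adgrg5 had at most 4.56 and 4.50 CPM in pDC_TG and at least 4.78 and 4.70 CPM in the controls. Ugt1a7c, a glucuronosyltransferase, had 0.319 to 3.61 CPM in pDC_TG and at least 4.20 CPM in the controls, but 54.6% of its exonic bases are shared with the other genes of its cluster, so the member of the family that fell is uncertain.

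**Figure D5:**
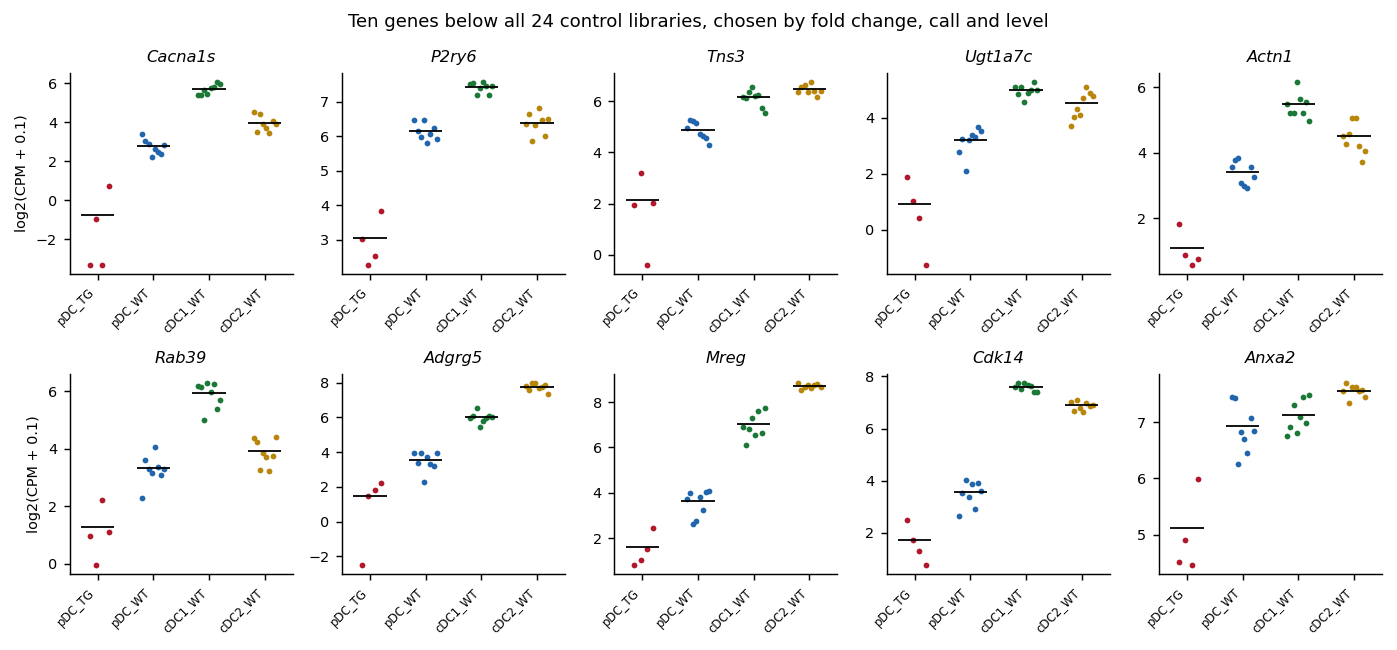
Level of 10 genes below all controls, as log2(CPM + 0.1), in pDC_TG (red), pDC_WT (blue), cDC1_WT (green) and cDC2_WT (gold). Each point is a library and each black line a group mean; the 4 pDC_TG points lie below all 24 control points, as the rule requires. The genes have the largest log2 falls among those called in all 3 comparisons and at 5 CPM or more in the lowest control group; genes with lower control levels such as Ifi205 are left out, as are predicted genes and markers of other cell types.

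Genes of endoplasmic reticulum folding and secretion were below the controls in 5 of 24 cases, against 0.935% of all genes tested. None was above, against 1.98%, and the same 5 had fallen, against 2.4%. The list as a whole was not below every control group. While 20 of the 24 were called lower than pDC_WT and 18 lower than cDC1_WT, 12 were called higher than cDC2_WT and 6 lower. Over all genes tested 7.04% were lower than pDC_WT, 26.6% lower than cDC1_WT, 24.3% higher than cDC2_WT and 23.9% lower. Herpud1, of the degradation machinery, had 514, 654, 622 and 576 CPM in pDC_TG and at least 829 CPM in the controls (log2 fold change -0.73 ± 0.13, adjusted p = 0.000101). Hspa5, the chaperone BiP, had 774, 854, 790 and 813 CPM in pDC_TG, against 1185 to 1385 CPM in pDC_WT and 925 to 1145 CPM in cDC2_WT (log2 fold change -0.37 ± 0.08). Calr, the lectin chaperone calreticulin, and Ssr1, a translocon-associated protein, fell by 0.32 and 0.39 on the log2 scale. The count depended on scaling: with total counts only Herpud1 and Sdf2l1 were below the controls and called lower in all 3, and the adjusted p was 0.0595 for Hspa5, 0.103 for Calr and 0.223 for Ssr1. Of 7 tested plasma cell markers Sdc1 and Prdm1 were above the controls; Sdc1, Prdm1 and Irf4 had risen and Derl3, which acts in endoplasmic reticulum degradation, had fallen, with at most 0.422 CPM in pDC_TG.

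Immediate early genes were below in 3 of 19 cases, against 0.935% of all genes tested, and 5 had fallen, against 2.4%. Without pDC_TG replicate 1, 2 or 3, or with total counts, 3 had fallen. Against pDC_WT the list was mixed: 4 genes were called higher and 5 lower, against 7.72% and 7.04% of all genes tested. Of the 19, 17 were lower than cDC1_WT and 18 lower than cDC2_WT, against 26.6% and 23.9%. Ier5 had 618, 557, 407 and 439 CPM in pDC_TG and at least 717 CPM in the controls, and Klf6 had 380, 478, 454 and 511 CPM and at least 560 CPM. Btg2, an antiproliferative gene, had 736 to 897 CPM in pDC_TG, 1001 to 1408 CPM in pDC_WT and 4580 to 8311 CPM in cDC2_WT (log2 fold change -0.57 ± 0.14, adjusted p = 0.00588). Its relative Btg1, chosen after its values were seen, had 981 to 1277 CPM in pDC_TG and at least 1544 CPM in the controls.

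The following genes below the controls were chosen after their values were seen, and no list of their kind was counted. Asah1, the acid ceramidase, had 238, 194, 179 and 251 CPM in pDC_TG, against 335 to 623 CPM in pDC_WT and 308 to 456 CPM in cDC2_WT (log2 fold change -0.80 ± 0.13, adjusted p = 9.82e-06). The alkaline ceramidase Acer3 had 34.4 to 45.4 CPM in pDC_TG and at least 60.3 CPM in the controls, and Galc, which cleaves galactosylceramide, had 1.44 to 1.74 CPM in pDC_TG and at least 2.21 CPM. Hexa, M6pr and the protease inhibitor Cst3 fell by 0.42, 0.39 and 0.44 on the log2 scale. Asah1, Acer3, Galc, M6pr and Cst3 stayed below the controls under total-count scaling, where Hexa did not. Receptors below the controls included the proton-sensing Gpr65, with 12.1 to 32.4 CPM in pDC_TG and 42.8 to 99.2 CPM in pDC_WT, and Gpr35, with 36.8 to 60.4 and 93.8 to 142 CPM. The neonatal Fc receptor gene Fcgrt had 23 to 59 CPM in pDC_TG and 61.9 to 97.3 CPM in pDC_WT, and Tnfrsf1a, the TNF receptor 1, had 39.2 to 56.2 and 58.4 to 85.0 CPM. Dnase1l3, a secreted DNase of dendritic cells and macrophages, had 3.76, 3.90, 8.22 and 8.68 CPM in pDC_TG, against 10.9 to 25.6 CPM in pDC_WT and 620 to 891 CPM in cDC1_WT (log2 fold change -1.50 ± 0.20, adjusted p = 2.69e-06). All of these had fallen.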

How the data were processed

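The authors deposited whole-number counts per gene for 28 libraries. Per the labels' protocols, sorted cells were made into cDNA by SMART-Seq v4 and sequenced as single reads, and nothing in the labels gives strand. Per the submitters' processing notes reads were mapped to mm10 with TopHat2 2.1.0; SAMtools 0.1.18, Trimmomatic 0.35 and FastQC 0.11.4 are also named; the counting tool and its annotation are not given in the sources used here. Reads outside genes (8.23% to 18.7%) and ambiguous reads (1.04% to 1.57%) were left out. No 2 libraries of a group agreed within sampling noise.

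Genes were filtered (filterByExpr, minimum count 10, minimum total 15), scaled by TMM and tested with edgeR 4.0.16 (R 4.3.3, robust quasi-likelihood fit of all 28 libraries, Benjamini-Hochberg adjustment over 13159 genes). The fit was also run on simulated counts drawn independently for each library, a run that cannot bear on libraries that share a source. CPM are the deposited counts over TMM-scaled totals, with 0.1 added for plots only. Alternatives were total-count scaling, DESeq2 1.42.0, no filter, a 1.5-fold margin, subsets of libraries, a replicate block, a sex term and fits of 2 groups.

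Genes and lists were chosen with earlier results of these data known. Named genes are Irf8, the 10 above and 10 below with the largest fold change to the nearest control group (called in all 3, at least 5 CPM in the higher group, no predicted genes, antigen receptor segments or markers of other cell types), and up to 4 members per list; others are marked where they appear. Positions are from RefSeq (GRCm38.p6), which is the mm10 assembly, and overlaps from GENCODE. An adjusted p above 0.05 does not show that levels did not differ.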

Additional observations from a re-analysis of the deposited data

Results flagged for a closer look

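In 170 combinations of a named gene and a group, 11 had a library whose gap to the next one was wide for the group's range by Dixon's test at the 95% level, where chance gives about 1 in 20. Of these, 4 concern pDC_TG: Id3 had 70.6 CPM in replicate 1 and 30.9 to 34.0 CPM in the others, Ccr1 had 252 CPM in replicate 2, Calr had 657 CPM in replicate 2 and Actn1 had 3.45 CPM in replicate 1.

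Among control libraries, Lrrc15 had 11.6 CPM in pDC_WT replicate 1 and Il34 had 1.13 CPM in pDC_WT replicate 6. In cDC1_WT, Actn1 had 70.5 CPM in replicate 4 and Oasl2 had 6.73 CPM in replicate 1. In cDC2_WT, Smoc1 had 1.35 CPM in replicate 2, Il2ra had 6.32 CPM in replicate 5 and Hrh1 had 13.2 CPM in replicate 3, which was below the rest of its group. The cause was not tested for any of them.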

How the results depend on the processing

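The counts of genes above and below were 261 and 123. A margin of 1.5-fold left 80 and 10. Control replicates 1 to 4 alone gave 368 and 204, and control replicates 5 to 8 alone gave 404 and 231; fewer control libraries make a narrower range. Leaving out a pDC_TG library gave 294 to 334 above and 134 to 165 below, and leaving out a control library gave 259 to 280 and 123 to 140. Total-count scaling kept 260 of the genes above and 82 of those below, and DESeq2 size factors kept 249 and 121.

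For calls in all 3 comparisons the counts were 288 higher and 316 lower, or 47.7% higher. This share was 64.0% with total counts (423 and 238) and 62.7% with each comparison fitted on its 2 groups alone (351 and 209). The test against a 1.5-fold change called 75 and 76. DESeq2 called 278 and 418, the fit without a filter 283 and 285, and the fit with a sex term 286 and 321. Leaving out a pDC_TG library gave 214 to 241 and 259 to 295, and leaving out a control 249 to 285 and 306 to 330. The log2 fold change of Irf8 stayed between -2.18 and -1.98 without any single library.

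Same-numbered libraries did not pair. Their 12 correlations of deviations ran from -0.03 to 0.09, none over 0.1, and 1 library correlated best with its own number. The best matches lay elsewhere. In pDC_WT and cDC2_WT, pDC_TG replicates 1, 2, 3 and 4 correlated best with control replicates 5, 6, 7 and 8. In cDC1_WT the best matches were replicates 1, 6, 7 and 8. Whether matched libraries share an animal or a batch was not tested. The replicate block joined same-numbered libraries rather than those best matches, so it does not check that pairing. With the replicate block 301 genes were called higher and 347 lower, and no fit used the best matches.

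Of 47 named genes other than Irf8, 31 kept their calls under all 37 alternatives and none changed direction. Of 32 lost calls, 13 were with the 1.5-fold test; Id3, Bad, Prdm1 and Tmem121 were lost most often.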
